A study of Mus musculus with 20 samples.

Results

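Mal, the gene for a small membrane proteolipid on mouse chromosome 2, was followed heart by heart in 2 mouse strains that carry duplications of part of chromosome 16. It is 1 of the 48795 genes in the deposited table, and it was chosen by its normalised read counts, which were higher in the hearts of both mutant strains than in their wild-type (WT) littermates. The differences between mutant and WT hearts that led to this choice are therefore given below as a description, without a test. Tests were kept for measures that did not enter the choice, namely the neighbouring genes, related genes, cell type markers and the variation of Mal among hearts of the same genotype.

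The MAL protein crosses the membrane several times and belongs to the MARVEL family, whose members are found where cholesterol-rich membrane is sorted and where membranes are closely apposed. It is known as a component of lipid rafts that carries cargo to the apical surface of polarised epithelial cells, as a protein of the compact myelin made by oligodendrocytes and Schwann cells, and as a raft protein of T lymphocytes.

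The hearts came from mid-gestation embryos (E13.5), and each library was made from RNA of a whole heart. The 4 groups of 5 hearts were Dp3Tyb, the WT littermates of Dp3Tyb (labelled wt_d), Ts1Rhr, and the WT littermates of Ts1Rhr (labelled wt_t), all on a C57BL/6J background. Dp3Tyb mice have an extra copy of the chromosome 16 genes from Mir802 to Zbtb21 and Ts1Rhr mice of the shorter stretch from Cbr1 to Fam3b in every cell, so that Mal, on chromosome 2, is present in 2 copies in all groups. The labels give heart defects for all 5 Dp3Tyb hearts and for Ts1Rhr replicates 1 and 2, and none for Ts1Rhr replicates 3 to 5. For Ts1Rhr replicates 1 and 2 this conflicts with the paper, which states that Ts1Rhr embryos lack such defects. The paper scored defects at a later embryonic day, so whether the labels describe each single heart is not known. In whole hearts, more cells of a type that expresses a gene cannot be told apart from more RNA of that gene per cell.

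The libraries held 6.60 to 19.6 M reads assigned to genes, of which 4.85 to 19.5% came from the mitochondrial genome, with 7 libraries above 10%. WT replicate 5 of the Dp3Tyb cohort was both the shallowest library and the one with the highest mitochondrial share. The heart muscle genes Myh7, Actc1 and Myh6 averaged 131286, 94546 and 67392 normalised reads over the 20 libraries. As a check of the genotype labels, 12 of 12 genes that lie in both duplications were higher on average in each mutant strain, with a median log2 difference of 0.50 in Dp3Tyb and 0.51 in Ts1Rhr. Of these 12 genes 4 passed the test upward in each strain, where 0.0474% of all tested genes did in Dp3Tyb and 0.0269% in Ts1Rhr.

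In the RefSeq annotation of the GRCm38.p6 build Mal lies on the minus strand at chr2:127633226-127656695, a span of 23470 bases. No other annotated gene overlaps that span. Mal was a weakly expressed gene in these hearts. Per kilobase of its merged exons (2824 bases) the mean over WT hearts was 18.3 normalised reads, which placed it at the 23.4th percentile of 13835 expressed protein-coding genes. For the genes closest to it in the MARVEL family, the levels on the same per-kilobase scale were 928 for Plp2, 49.8 for Mall and 10.95 for Mal2.

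In the WT littermates of Dp3Tyb, the normalised read counts of Mal were 49.8, 47.2, 43.3, 53.8 and 73.4 in replicates 1 to 5. In the Dp3Tyb hearts they were 87.7, 109, 128, 108 and 134. All 5 mutant hearts were above all 5 WT hearts, and the highest WT value was that of the shallowest library. The mean was 113 ± 18.4 for the mutant hearts against 53.5 ± 11.8 for WT (SD, n = 5 each), a log2 difference of 1.08 ± 0.17 (SE) or 2.11-fold. The lowest Dp3Tyb heart was 1.19-fold above the highest WT heart.

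In the WT littermates of Ts1Rhr, Mal stood at 52.9, 42.3, 48.4, 42.1 and 62.3 normalised reads in replicates 1 to 5. In the Ts1Rhr hearts it stood at 82.6, 94.7, 83.5, 85.05 and 97.2. These groups did not overlap either, and the Ts1Rhr hearts lay close together. Their mean was 88.6 ± 6.81 against 49.6 ± 8.40 in WT (SD, n = 5 each), a log2 difference of 0.84 ± 0.11 (SE) or 1.79-fold. The 2 Ts1Rhr hearts labelled with defects had 82.6, the lowest of the group, and 94.7, and the 3 labelled without had 83.5 to 97.2. With so few hearts and labels that conflict with the paper, no relation of Mal to defects can be read from these values.

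**Figure D1:**
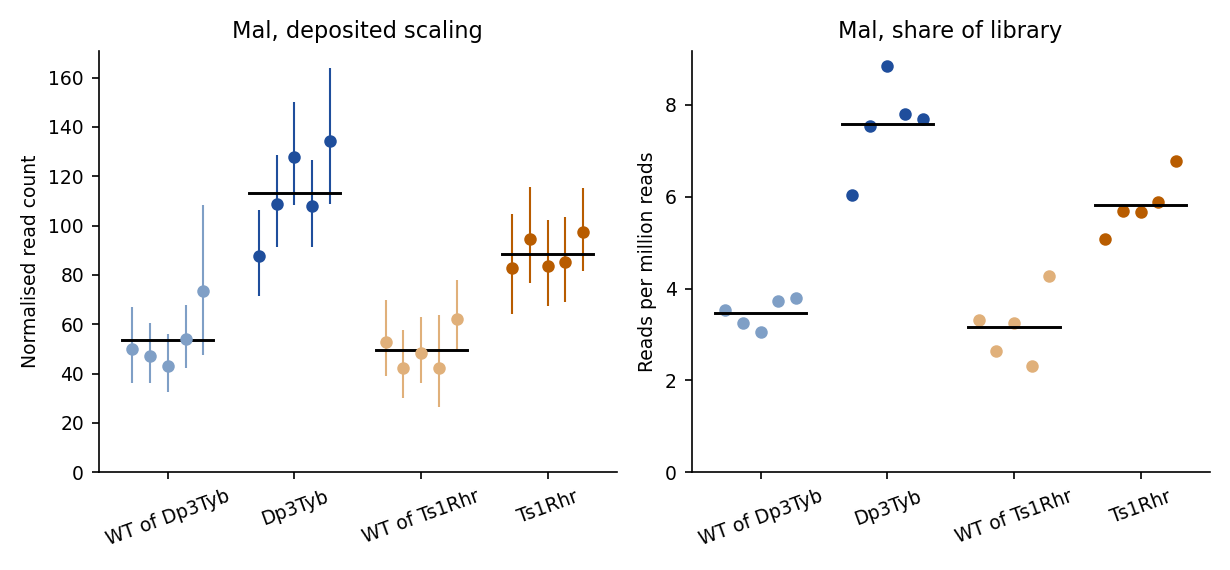
Mal in each of the 20 hearts, by genotype group. The left panel gives normalised read counts with 95% Poisson intervals of the reads behind each value, the right panel gives RPM, the reads of Mal relative to all reads assigned to genes in that library, and black lines are group means. The lowest of the 10 mutant hearts (82.6) lies above the highest of the 10 WT hearts (73.4) in the left panel.

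Across both cohorts, the lowest of the 10 mutant hearts (82.6) was above the highest of the 10 WT hearts (73.4). In order of their means the groups ran Dp3Tyb, Ts1Rhr, WT of Dp3Tyb and WT of Ts1Rhr. The neighbours in the upper part of this order differed by 0.34 ± 0.12 (SE, log2) with overlapping ranges, since the lowest Dp3Tyb heart (87.7) lay below the highest Ts1Rhr heart (97.2). The WT groups differed by 0.10 ± 0.17 and overlapped over most of their ranges. The change in Dp3Tyb was larger than that in Ts1Rhr by 0.24 ± 0.21, close to 1 SE of that difference.

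The read support behind these values was modest. A total of 1629 reads fell on Mal in the 20 libraries, with 258 in the WT hearts of the Dp3Tyb cohort, 638 in Dp3Tyb, 241 in the WT hearts of the Ts1Rhr cohort and 492 in Ts1Rhr. Single hearts had 22 to 77 reads in WT and 69 to 151 in mutants. The highest WT value, 73.4, rested on 25 reads and had a 95% Poisson interval of 47.5 to 108, which reached past the lowest mutant value. Intervals of this kind cover counting error only. Counting error alone corresponds to a coefficient of variation of 14.9 and 15.7% in the WT groups of the Dp3Tyb and Ts1Rhr cohorts, 9.02% in Dp3Tyb and 10.3% in Ts1Rhr. The observed values were 22.0, 16.9, 16.3 and 7.69%, so the spread among Ts1Rhr hearts was smaller than counting error gives on average, and the other groups varied by more.

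On a scale without the size factors, as RPM (the reads of Mal relative to all reads assigned to genes in the library), Mal averaged 7.59 ± 1.01 in Dp3Tyb against 3.47 ± 0.313 in WT, and 5.82 ± 0.614 in Ts1Rhr against 3.16 ± 0.752 in WT (SD, n = 5 each). The groups did not overlap on this scale. The WT replicate that stood highest after scaling, at 73.4, had 3.79 RPM, next to 3.72 in the WT replicate below it.

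Ranked by log2 difference from the highest, Mal was number 82 of 14763 tested genes in Dp3Tyb and number 51 of 14867 in Ts1Rhr. Among genes with a mean of at least 50 normalised reads it was number 23 of 12123 and number 8 of 12161. In 0.501% of genes all Dp3Tyb hearts were above all their WT littermates, in 0.619% all Ts1Rhr hearts were, and both held for 22 of 14605 genes (0.151%), while 0.0342% were lower in every mutant heart of both strains. Of these 22 genes 10 lay in the duplicated stretch of chromosome 16 and 12 elsewhere, and Mal was among the latter by the way it was picked. By the smaller of its differences Mal stood in place 3, after Clec4g, a C-type lectin of sinusoidal endothelium (1.16 and 1.14 log2 in Dp3Tyb and Ts1Rhr), and Snx20, a sorting nexin of blood cells (0.997 and 0.955), both of which had lower mean values (35.3 and 13.1 normalised reads). The next was Bace2, a protease gene present in 3 copies in both strains (0.75 and 0.79).

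The genes around Mal on chromosome 2 were examined because they were no part of its choice. The annotation gives 22 protein-coding genes within 500 kb on either side. All of them were found in the table and 18 were expressed highly enough to be tested, while Astl, Gpat2, Prom2 and Acoxl stayed below the filter. None of the 18 passed the test in either strain (limma with Benjamini-Hochberg adjustment), where 0.0542% of all tested genes did in Dp3Tyb and 0.0269% in Ts1Rhr, and none passed with DESeq2 (0.159 and 0.168% of all genes) or edgeR (0.0596 and 0.0266%) on the recovered reads, as shares of the genes each tested. The test of a difference in change between the strains, which 0.013% of all genes passed, called none of them. At an unadjusted p under 0.05, 2 of the 18 stood out in each strain, where 2.8% of all tested genes did in Dp3Tyb and 5.52% in Ts1Rhr. In Dp3Tyb 8 of the 18 had higher and 10 lower means than WT, with a median log2 difference of -0.04, and in Ts1Rhr 9 were higher and 9 lower, with a median of -0.01. The medians over all tested genes were -0.0027 and -0.0016. No neighbour had mutant values that all lay on the same side of all WT values, where 0.975% of all tested genes did in Dp3Tyb and 1.12% in Ts1Rhr.

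The nearest genes on one side of Mal are Mrps5, for a protein of the mitochondrial ribosome, 29.2 kb away, and Zfp661, for a zinc finger protein, 46.1 kb away. Mrps5 differed from WT by -0.08 ± 0.08 (log2, SE) in Dp3Tyb and -0.07 ± 0.10 in Ts1Rhr. Zfp661 differed by -0.08 ± 0.13 and 0.00 ± 0.14. Both genes lay around 0, far from the differences of Mal itself, and for Mrps5 WT replicate 5 of the Dp3Tyb cohort stood above the rest of its group. Further out on this side, Kcnip3, for a calcium-binding partner of potassium channels, had 0.29 ± 0.23 and 0.25 ± 0.16, and Fahd2a had 0.10 ± 0.27 and 0.37 ± 0.16 (adjusted p = 0.795 in Ts1Rhr), with WT replicate 5 of the Dp3Tyb cohort below the rest of its group. Adra2b, an adrenergic receptor gene 266 kb away, had 0.14 ± 0.47 and -0.19 ± 0.36, with WT replicate 2 of the Ts1Rhr cohort above its group.

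On the other side the nearest gene is Mall, 47.7 kb from Mal, which encodes the MAL-like protein BENE and is the closest relative of Mal by position. Mall ranged between 82.2 and 103 normalised reads in WT hearts and between 85.2 and 126 in their Dp3Tyb littermates, and between 103 and 138 in WT hearts and 107 and 129 in their Ts1Rhr littermates. The groups overlapped in both cohorts. Its log2 difference was 0.34 ± 0.13 in Dp3Tyb (unadjusted p = 0.0256, adjusted p = 1) and 0.03 ± 0.11 in Ts1Rhr (adjusted p = 0.932). WT replicate 5 of the Dp3Tyb cohort and WT replicate 4 of the Ts1Rhr cohort stood above the rest of their groups for this gene. Further out, Mtln, for a short mitochondrial peptide, differed by 0.11 and 0.14, with Ts1Rhr replicate 3 above the rest of its group. Bub1, a kinase gene of the mitotic checkpoint 144 kb from Mal, was at -0.18 ± 0.08 and -0.21 ± 0.07 (unadjusted p = 0.0395 and 0.0141), and in the Ts1Rhr cohort 1 WT heart (1251) stood below the others (1411 to 1432). Bcl2l11, which encodes the pro-apoptotic protein BIM, lies 469 kb away and differed by -0.08 and -0.06, with WT replicate 5 of the Ts1Rhr cohort above the rest of its group.

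**Figure D2:**
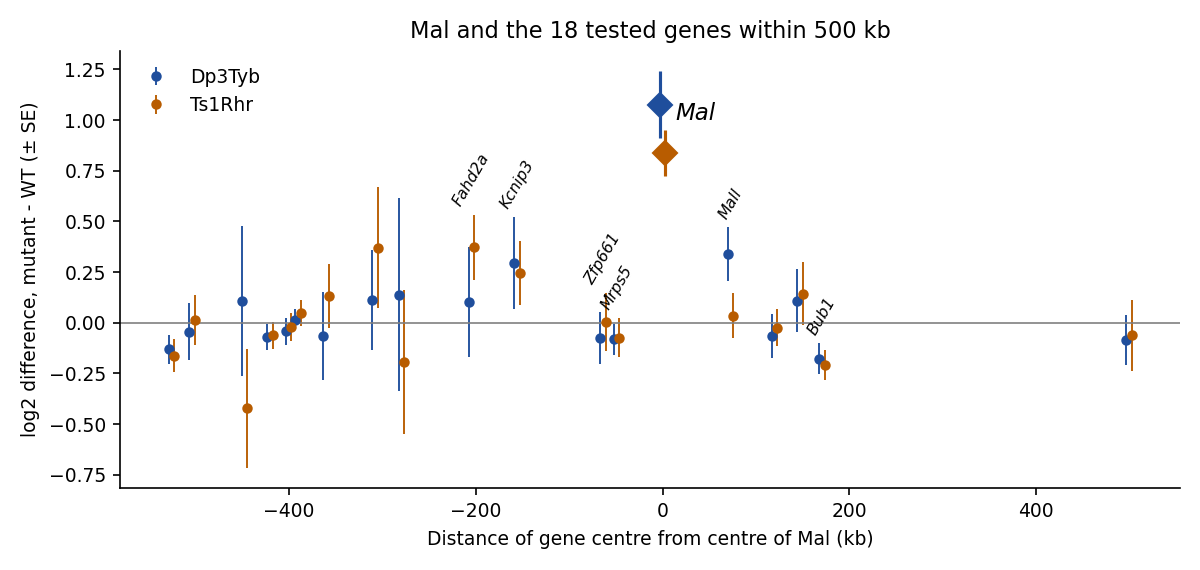
Mal and the 18 tested genes within 500 kb of it on chromosome 2. The horizontal axis is the distance from the centre of Mal in kilobases and the vertical axis the log2 difference of mutant from WT with its SE, in Dp3Tyb and Ts1Rhr. Mal stands at 1.08 and 0.84, while its neighbours lie between -0.42 and 0.37.

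The other genes of the MARVEL and synaptophysin families encode proteins built on the same fold of membrane-spanning helices. Of 26 such genes all were found, 22 had a mean of at least 1 normalised read, and 18 were tested in Dp3Tyb and 17 in Ts1Rhr. None passed the test in either strain with limma, DESeq2 or edgeR, and at an unadjusted p under 0.05 there was 1 in each, Mall in Dp3Tyb and Cmtm8 in Ts1Rhr. Over all tested genes 0.0542 and 0.0269% passed in Dp3Tyb and Ts1Rhr, and 2.8 and 5.52% had an unadjusted p under 0.05. In each strain 13 had a higher mean than WT, and the median log2 difference was 0.07 in Dp3Tyb and 0.09 in Ts1Rhr. No member had mutant values all above or all below those of WT, against 0.975 and 1.12% of all tested genes.

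Mal2, whose product acts in transcytosis in epithelial cells, varied widely, with 8.88 to 80.4 normalised reads over the 20 hearts, and differed by 0.52 ± 0.54 in Dp3Tyb and -0.63 ± 0.45 in Ts1Rhr. Pllp, for the myelin protein plasmolipin, had reads in 9 libraries and never more than 2.32. The abundant members were Myadm, associated with myeloid differentiation and membrane rafts, Plp2, a proteolipid of intracellular membranes, and Cmtm3, a chemokine-like family member. Myadm had a mean of 5163 normalised reads and differences of -0.04 and 0.03. Plp2 averaged 1539 with 0.02 and -0.04, and Cmtm3 averaged 1010 with 0.08 and 0.09, so that the members with the most reads had differences within about 1 SE of 0 or little more. The relative with the largest difference in Dp3Tyb was Synpr, a synaptic vesicle gene with a mean of 9.29 normalised reads, at 0.98 ± 0.72 (adjusted p = 1), and it was too low to be tested in Ts1Rhr. Syp, for synaptophysin, followed at 0.67 ± 0.34 and had -0.22 ± 0.34 in Ts1Rhr. Cmtm8, at a level close to that of Mal, had 0.34 ± 0.19 and 0.40 ± 0.16, with overlapping groups.

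**Figure D3:**
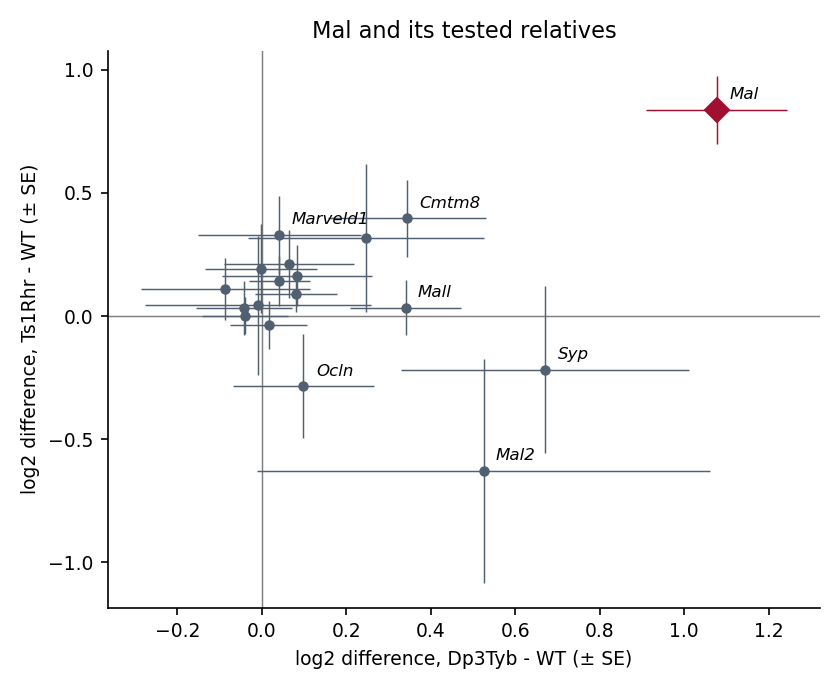
Log2 difference of mutant from WT in Dp3Tyb (horizontal axis) and in Ts1Rhr (vertical axis), each with its SE, for Mal and the members of the MARVEL and synaptophysin families tested in both strains. Mal lies at 1.08 and 0.84, and the relatives reach from -0.63 to 0.40 on the vertical axis and up to 0.67 (Syp) on the horizontal axis.

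Genes of the processes in which the protein is known to take part were examined next. Of 14 genes of membrane rafts and caveolae, 13 were tested and none passed in either strain. In Dp3Tyb 7 and in Ts1Rhr 11 of them were higher on average than in WT, with medians of 0.00 and 0.09, and 1 in each strain, the cholesterol-binding prominin gene Prom1, had an unadjusted p under 0.05 (0.20 ± 0.07 and 0.25 ± 0.10), against 2.8 and 5.52% of all tested genes. Cav1 and Cavin1, the main coat genes of caveolae, averaged 2288 and 5726 normalised reads and differed by -0.04 and -0.06 in Dp3Tyb and by -0.08 and 0.09 in Ts1Rhr.

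Of 19 genes of apical sorting 18 were found and 15 tested. None passed, and 0 in Dp3Tyb and 1 in Ts1Rhr (Lgals3) had an unadjusted p under 0.05, against 2.8 and 5.52% of all tested genes. Inf2, a formin that acts with MAL in apical transport, differed by -0.01 ± 0.07 and 0.13 ± 0.09, and Cdc42, a small GTPase of cell polarity, by -0.01 ± 0.06 and 0.03 ± 0.05. The medians of the list were -0.01 and 0.03.

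Of 13 myelin genes 7 were tested in Dp3Tyb and 8 in Ts1Rhr. None passed, none had an unadjusted p under 0.05 (2.8 and 5.52% of all tested genes), and the medians were -0.01 and -0.02. The genes that define myelin-forming oligodendrocytes were nearly silent. Mog had a read in 2 libraries, Mobp in 11 and Opalin in 12, none of them above 5.41 normalised reads in any heart. Mbp, which is also transcribed outside myelin, averaged 204 normalised reads and differed by -0.02 ± 0.12 in Dp3Tyb and by 0.14 ± 0.16 in Ts1Rhr.

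For none of the 3 process lists did DESeq2 or edgeR call a member in either strain. The same held for the markers of 13 cell types that a dissected heart could hold. In Schwann cells and neural crest, 7 of 7 tested markers in Dp3Tyb and 4 of 8 in Ts1Rhr were higher than in WT, with medians of 0.33 and 0.09. At an unadjusted p under 0.05 (limma) there were 0 of 7 and 1 of 8, against 2.8 and 5.52% of all tested genes. The glial transcription factor Sox10 had 0.65 ± 0.69 in Dp3Tyb and -0.36 ± 0.45 in Ts1Rhr. The summed Schwann cell list overlapped widely, with 461 to 980 normalised reads in WT and 639 to 994 in Dp3Tyb, and 603 to 783 in WT and 634 to 929 in Ts1Rhr.

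Of the neuron markers, 7 of 7 tested in Dp3Tyb were higher than in WT, with differences of 0.21 to 0.82 and a median of 0.64, and 4 of 7 in Ts1Rhr, with a median of 0.07. None passed the test, and 1 of 7 and 0 of 7 had an unadjusted p under 0.05, against 2.8 and 5.52% of all tested genes. The former was Tubb3, a neuronal tubulin gene, at 0.64 ± 0.24 in Dp3Tyb and 0.58 ± 0.27 in Ts1Rhr, with adjusted p of 1 and 0.795. The summed neuron list overlapped, with 148 to 376 normalised reads (median 211) in WT hearts against 272 to 538 (median 357) in their Dp3Tyb littermates, and 260.4 to 424 (median 283) in WT hearts against 229 to 474 (median 375) in their Ts1Rhr littermates. The part of RNA from Schwann cells and neurons in the values of Mal was not tested.

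Of 10 T cell markers 6 had a mean of at least 1 normalised read, and 2 were tested. Their summed level overlapped in the Dp3Tyb cohort, with 52.8 to 85.8 in WT against 58.7 to 99.9 in Dp3Tyb hearts. It did not overlap in the Ts1Rhr cohort, with 62.7 to 66.2 in WT against 69.3 to 83.9 in Ts1Rhr hearts. The part of T cell RNA in the values of Mal was not tested. Cd3e and Cd3d, subunits of the T cell receptor complex, each had a read in 1 of the 20 libraries and Cd3g in 6. Lck, a tyrosine kinase of T cells, had 23.5 to 40.2 normalised reads in WT and 32.2 to 64.4 in Dp3Tyb, and 28.2 to 34.5 in WT and 42.6 to 51.5 in Ts1Rhr. In the Ts1Rhr cohort these groups did not overlap, as in 0.619% of all tested genes in this direction, with a difference of 0.55 ± 0.14, but Lck did not pass the test over all genes (adjusted p = 0.690, limma), and in Dp3Tyb it had 0.35 ± 0.22 (adjusted p = 1).

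Markers of lung and foregut epithelium varied most between hearts, and their direction was opposite in the 2 strains. In Dp3Tyb 11 of 11 tested markers had a higher mean than WT, with a median of 1.93, and in Ts1Rhr 0 of 11 did, with a median of -1.76. None of them passed the test, and 0 of 11 and 2 of 11 (Nkx2-1 and Sox2) had an unadjusted p under 0.05, against 2.8 and 5.52% of all tested genes. The summed level overlapped between groups, with 24.4 to 742 normalised reads in WT against 142 to 1027 in Dp3Tyb hearts and 267 to 789 in WT against 26.6 to 669 in Ts1Rhr hearts. The part of lung and foregut RNA in the values of Mal was not tested. Sftpc, which defines lung surfactant cells, had reads in 5 libraries and never more than 3.62.

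Most markers of macrophages, fibroblast matrix and erythroid cells had higher means than WT in both strains. For macrophages this held in 8 of 8 genes in Dp3Tyb (median 0.27) and 7 of 8 in Ts1Rhr (median 0.28). None passed the test, and 1 of 8 and 3 of 8 had an unadjusted p under 0.05, against 2.8 and 5.52% of all tested genes. Their summed level overlapped, with 1080 to 1762 in WT against 1537 to 1863 in Dp3Tyb hearts and 1246 to 1500 in WT against 1262 to 2003 in Ts1Rhr hearts. Of the matrix markers 7 of 7 and 6 of 7 were higher, and of the erythroid markers 6 of 7 and 7 of 7, with none passing the test and none at an unadjusted p under 0.05. The part of RNA of these 3 cell types in the values of Mal was not tested. The remaining lists of expressed markers had medians of 0.02 and 0.07 for epicardium, 0.00 and 0.05 for endothelium, -0.11 and -0.03 for cardiomyocytes, 0.16 and 0.07 for matrix-forming fibroblasts, 0.03 and 0.00 for smooth muscle and 0.13 and 0.32 for erythroid cells, in Dp3Tyb and Ts1Rhr in that order. Of the liver and the thymus and pharyngeal lists, 2 and 1 markers were tested. At an unadjusted p under 0.05 (limma) there were 1 of 2 liver markers in Dp3Tyb and 1 of 10 epicardial markers in Ts1Rhr, and none in the rest of these lists. The shares of all tested genes were 2.8% in Dp3Tyb and 5.52% in Ts1Rhr.

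**Figure D4:**
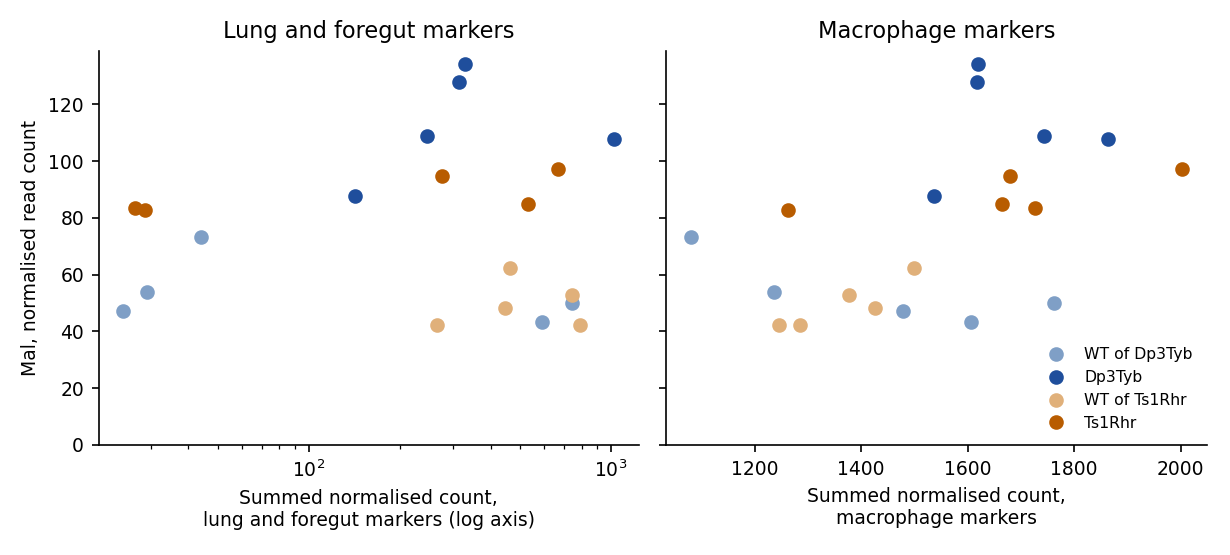
Normalised read count of Mal (vertical axes) against the summed normalised read counts of the lung and foregut markers (left) and of the macrophage markers (right) in each of the 20 hearts, coloured by group. Mutant hearts lie above 82 and WT hearts below 74 for Mal, which is the difference by which Mal was picked. At the ends of the macrophage range lie only WT hearts (1080 to 1246) and only mutant hearts (1863 and 2003).

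Among hearts of the same genotype, the variation of Mal was compared with 15 measures, namely the scores of 13 cell type lists, the total reads and the mitochondrial share, after removing the mean of each group. None of the 15 relations passed after Benjamini-Hochberg adjustment (permutation within groups, 2-sided, 20 libraries). At an unadjusted p under 0.05 there was 1 by Pearson's r and 1 by Spearman's rho. The epicardial score had r = -0.54 (p = 0.0316, adjusted p = 0.474) and rho = -0.46 (p = 0.0759, adjusted p = 0.569), and r was -0.36 without the 2 hearts farthest from the median. The liver score had r = 0.40 (p = 0.0697, adjusted p = 0.523) and rho = 0.50 (p = 0.0310, adjusted p = 0.465), and r was 0.23 without the 2 farthest hearts.

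These were the only measures of the 15 whose relation with Mal had the same sign in both cohorts, and the other 13 had opposite signs. The macrophage score had r = -0.52 in the 10 hearts of the Dp3Tyb cohort and 0.68 in those of the Ts1Rhr cohort. The mitochondrial share had r = 0.80 and -0.45, and the total reads -0.74 and 0.71. The strongest relation in the Dp3Tyb cohort was that with the erythroid score, with r = -0.86 (permutation p = 0.00602, adjusted p = 0.0903), against 0.63 in the Ts1Rhr cohort and -0.09 over the 20 hearts. Pooled over the 20 hearts, the macrophage score, the mitochondrial share and the total reads had r of -0.07, 0.38 and -0.33, with adjusted p of 0.858, 0.844 and 0.858. Without WT replicate 5 of the Dp3Tyb cohort they were 0.36, -0.01 and 0.18, and without the 2 hearts farthest from the median of each measure 0.36, 0.20 and -0.02. Within the Ts1Rhr cohort alone the macrophage score and the fibroblast matrix score (r = 0.73) passed by Pearson's r after adjustment over the 15 relations (adjusted p = 0.0333 for each, permutation), and in the Dp3Tyb cohort the matrix score had r = -0.22. By Spearman's rho 4 relations passed in the Ts1Rhr cohort, the strongest being that with the total reads (rho = 0.89, adjusted p = 0.0054), followed by the matrix and macrophage scores (adjusted p = 0.0221 for each) and the cardiomyocyte score (rho = -0.72, adjusted p = 0.0471). In the Dp3Tyb cohort none passed by r or rho.

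**Figure D5:**
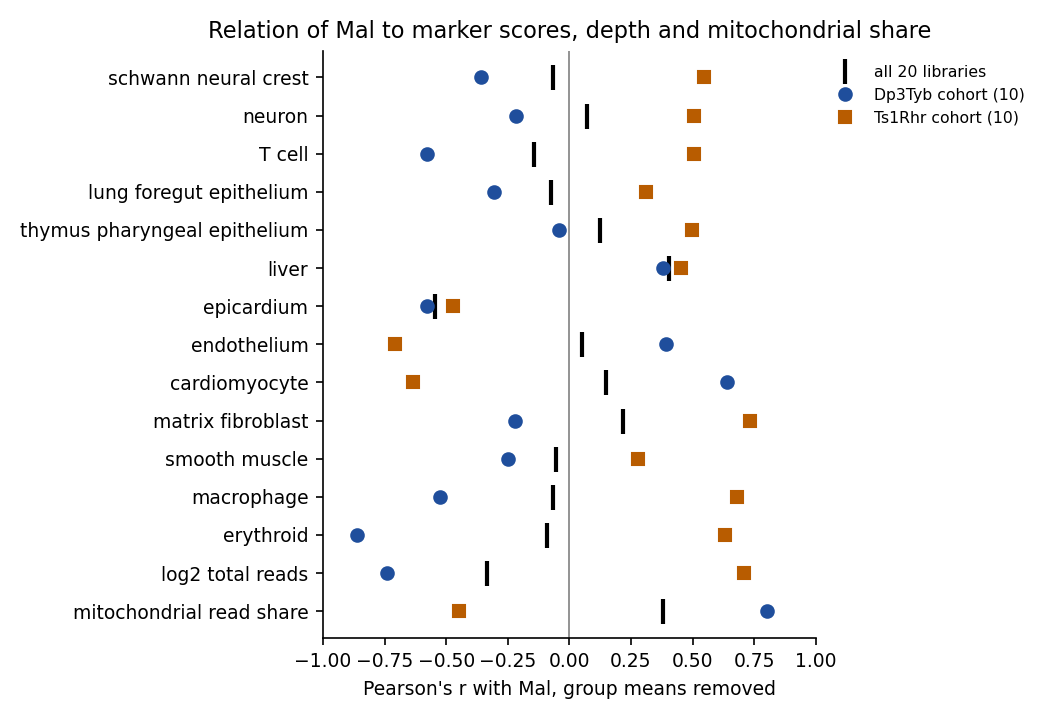
Pearson's r of Mal with 13 cell type scores, the total reads and the mitochondrial read share after removing group means. Ticks are all 20 libraries, circles the Dp3Tyb cohort and squares the Ts1Rhr cohort (10 libraries each), and circle and square lie on opposite sides of 0 for 13 of the 15 measures.

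The genes whose levels followed Mal most closely among hearts of the same genotype were ranked by the same group-centred Pearson's r over 20 libraries. Over 15347 genes the median r was -0.01 and the 5th and 95th percentiles were -0.53 and 0.50. An r above 0.7 was reached by 60 genes (0.391%) and one below -0.7 by 58, and 14 and 12 of these were past the same limit in each cohort on its own. These values rank genes within 1 set of hearts and share the depth and RNA quality of each library, so they are given as a description.

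At the top were Gsap, for an activating protein of gamma-secretase (r = 0.84), Hspa12a, for a distant member of the HSP70 family (0.84), Cavin4, a muscle-restricted gene of the caveolar coat (0.83), Sgcb, for beta-sarcoglycan of the dystrophin complex (0.83), and Tmem255a (0.83). Trim34a, an interferon-inducible TRIM gene, had 0.83, Acsl1, which activates fatty acids in heart muscle, 0.82, Samd9l, another interferon-inducible gene, 0.81, Nr3c1, the glucocorticoid receptor, 0.80, and Slc18a2, the vesicular monoamine transporter, 0.80. All 10 had positive r in both cohorts, with a range of 0.81 to 0.94 among hearts of the Dp3Tyb cohort and 0.54 to 0.85 for the Ts1Rhr cohort. None of the 10 passed the test between genotypes in either strain (limma), and 1 in each strain had an unadjusted p under 0.05 (2.8 and 5.52% of all tested genes). In 0.975% of all tested genes the groups did not overlap in Dp3Tyb, and in 1.12% in Ts1Rhr. Slc18a2 was lower in every Dp3Tyb heart (126 to 162) than in WT (174 to 241), by -0.46 ± 0.11 (adjusted p = 0.713), and Gsap lower in every Ts1Rhr heart (15.6 to 24.1) than in WT (25.1 to 43.7), by -0.59 ± 0.21 (adjusted p = 0.795), the opposite direction to Mal. Cavin4 averaged 58.8 ± 20.9 for Dp3Tyb against 59.2 ± 21.5 for WT, and 59.0 ± 7.68 for Ts1Rhr against 56.1 ± 17.3 for WT (SD, n = 5 each).

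At the other end were Cbx2, a Polycomb gene (r = -0.89), Fbn2, for the microfibril protein fibrillin-2 (-0.85), Trim68 (-0.83), Gm12254, annotated as a processed pseudogene whose reads may be shared with its parent gene (-0.82), and St3gal1, a sialyltransferase gene (-0.81). Of the neighbours of Mal, Mrps5 had r = 0.07 and Mall 0.39, and the latter was 0.81 among Dp3Tyb and WT littermates but -0.43 among Ts1Rhr and WT littermates.

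Without removing group means, the closest genes were Hlcs (0.93), Bace2 (0.88) and Ets2 (0.87), which are present in 3 copies in both mutant strains, followed by Ctsk (0.87) and Ctsc (0.86), for the lysosomal proteases cathepsin K and cathepsin C. Their r among hearts of the same genotype was 0.48, -0.15, 0.25, 0.44 and 0.66 in that order. This uncentred ranking includes the difference between mutant and WT hearts by which Mal was picked.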

How the data were processed

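Bulk RNA-seq libraries of 20 E13.5 hearts were used. Per the submitters' processing notes the authors trimmed reads with Trimmomatic 0.36, aligned and quantified them with STAR 2.5.2a and RSEM 1.2.31 on GRCm38, and normalised with DESeq2. The annotation used and the strand setting of counting are not given in the sources used here. The deposited signal values are read counts divided by the median-of-ratios size factor of each library, computed over all 20 libraries. In every library 100% of values were whole multiples of the value of 1 read (relative tolerance 1e-06), which gave back whole reads and depth (6.60 to 19.6 M reads per library). RSEM estimates counts that need not be whole, so these were taken as rounded estimates, a step the sources used here do not state. PCR duplicates were not identified, so intervals cover counting error only.

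Symbols and exon lengths came from GENCODE vM39 by gene ID (44565 of 48795 IDs, 91.3%) and positions from RefSeq GRCm38.p6. Each strain was tested against its own littermates with limma 3.58.1 (R 4.3.3) on log2(value + 1), with a trended robust prior, keeping genes that reached a value of 10 in 5 or more of the 10 libraries fitted. Log2 differences are on this scale, which understates changes of low genes. P-values were 2-sided and Benjamini-Hochberg adjusted over all genes tested (threshold 0.05). DESeq2 1.42.0 and edgeR 4.0.16 on the recovered reads, other scalings, filters and pseudocounts, and fits without single libraries were alternatives. The fits were tested on simulated data first. Relations of Mal within groups used 100000 permutations within groups.

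Mal, the gene lists and the tests were chosen with earlier results of these data known. Named genes are Mal, its protein-coding neighbours within 500 kb, members of the lists, and the 10 highest, 5 lowest and, without centring, 5 highest correlated genes. Clec4g and Snx20 were named after their values were seen. Values of 1 neighbour and 1 list member are not reported here. Replicate numbers follow the order of listing, and nothing in the labels ties them to litters or batches, so p-values measure the spread between these hearts.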

Additional observations from a re-analysis of the deposited data

Results flagged for a closer look

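The values of Mal and of its 5 nearest tested neighbours on each side were examined for single hearts standing apart in 44 groups of 5 (Dixon's test at the 95% level). Such a test picks out about 1 group in 20 by chance, and it picked 8, all among the neighbours and none for Mal. WT replicate 5 of the Dp3Tyb cohort, the shallowest library with the highest mitochondrial share, accounted for 3 of them. It had 984 normalised reads of Mrps5 against 787 to 836 in the other WT hearts, 52.8 of Fahd2a against 109 to 120 (119.6), and 103 of Mall against 82.2 to 85.01. In the WT hearts of the Ts1Rhr cohort, Adra2b stood at 41.2 in replicate 2 against 10.8 to 17.0, Mall at 138 in replicate 4 against 103 to 112, Bub1 at 1251 in replicate 5 against 1411 to 1432, and Bcl2l11 at 849.8 in replicate 5 against 442 to 489.97. Among Ts1Rhr hearts, Mtln stood at 119 in replicate 3 against 79.7 to 87.9. Their causes were not tested. No neighbour and no list member passed the test of a difference in change between the strains.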

How the results depend on the processing

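The difference of Mal kept its direction and moved by less than the spread between hearts under every alternative run, with log2 values of 1.01 to 1.195 in Dp3Tyb (18 alternatives) and 0.68 to 0.92 in Ts1Rhr (19 alternatives). The lowest value in Ts1Rhr, 0.68, came without libraries above 10% mitochondrial reads. The counts of genes passing the test moved more. In Dp3Tyb 8 genes passed, against 17 in 1 fit of all 20 libraries, 30 with DESeq2, 45 with the mitochondrial share as a covariate, 4 without the filter and 30 without libraries above 10% mitochondrial reads. Leaving out 1 heart at a time gave 2 to 13, with 13 without WT replicate 5 and 2 without WT replicate 1, 2 or 3 or Dp3Tyb replicate 1, 3 or 4. In Ts1Rhr 4 passed, against 11 in 1 fit of all 20 libraries, 24 with DESeq2, 25 with the mitochondrial share as a covariate, 0 without libraries above 10% mitochondrial reads (501 at an unadjusted p under 0.05, limma) and 0 without the hearts labelled with heart defects (2446 at an unadjusted p under 0.05), an alternative chosen after seeing the data. Leaving out 1 heart at a time gave 1 to 6. The causes of these shifts were not tested, other than that fewer libraries entered some fits. The neighbours and the 17 lists other than the 3-copy genes had 0 members passing under every alternative run. Relations of Mal within groups numbered 0 after adjustment in all 20 libraries, 0 to 0 leaving out 1 heart at a time, and 2 by Pearson's r (4 by Spearman's rho) within the Ts1Rhr cohort. At 22 to 151 reads a heart, differences of Mal of the size of its counting error were not detectable. No paired analysis was possible because the replicate numbers follow only the order of listing and the labels tie no mutant heart to a WT heart.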
